A study of Mus musculus with 6 samples.

Results

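The genes described here carry out or control cholesterol synthesis, its transport and storage inside the cell, and its efflux. They were 26 genes named by symbol, and a probe set counted when the array's annotation gave it that single gene. By this rule 24 genes had 54 probe sets, out of 18193 genes measured, while Acat2 and Soat1 were not analysed here. No receptor for cholesterol uptake was among them. The samples were lymphatic endothelial cells (LECs), which line lymphatic vessels, on 6 mouse expression arrays. Tumour-associated LECs (3 arrays) came from MDA-MB-435 tumours, xenografts of a human cancer cell line injected under the skin and excised after 8 weeks; the labels do not name the strain of the tumour-bearing mice. LECs from healthy tissue (3 arrays) came from the mammary skin of mice of the balb-c/nude strain, which lacks a working thymus. In both groups sections were stained for LYVE-1, a surface receptor by which lymphatic vessels are recognised, and the cells were cut out by laser capture microdissection, after which the RNA went through 1 round of Ribo-SPIA amplification. The labels call the arrays biological replicates and name no animals, so p-values measure the spread between these samples.

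Cells make cholesterol from acetyl-CoA through mevalonate and squalene to lanosterol, whose ring is then trimmed and rearranged into cholesterol. When membrane sterol is low, the escort protein SCAP carries the transcription factor SREBP-2 (gene Srebf2) from the endoplasmic reticulum to the Golgi, where it is cut and released to switch on most genes of synthesis; INSIG proteins hold the complex back when sterol is plentiful. Surplus cholesterol is stored as ester or exported by the ABC transporters ABCA1 and ABCG1, whose genes are targets of the oxysterol-sensing LXR receptors. In skin, keratinocytes and sebaceous gland cells are known for high sterol and fatty acid synthesis.

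All levels are log2 probe set signals, and all differences are tumour-associated minus healthy-tissue LECs on that scale. A gene was represented by its probe set with the highest mean over the 6 arrays, without setting 1 gene's level against another's. Background was set per array from 27 control probe sets for bacterial transcripts, at their 95th percentile, and lay at 3.42 to 3.91 on the tumour arrays and at 2.96 to 3.81 on the healthy-tissue arrays. The LEC marker gene Prox1 was above it on all 6 arrays, and Lyve1 on all but healthy replicate 1 (3.21). Correlations over all probe sets were 0.814 to 0.864 among tumour arrays, 0.808 to 0.846 among healthy-tissue arrays and 0.783 to 0.837 between the groups. Limma, fitted over all 45037 probe sets with Benjamini-Hochberg adjustment, called 2 of them at an adjusted p under 0.05 (0.00444%).

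Lower signal in tumour-associated LECs was seen in 10 of the 17 measured synthesis enzymes and 3 of the 4 sensing genes, and in neither of the efflux genes, by an unadjusted p alone. Of the 24 genes, 13 were lower at an unadjusted limma p under 0.05 and none was higher, while 4.28% of all genes were lower and 3.22% higher by that rule. The 13 were Hmgcs1, Mvd, Idi1, Sqle, Lss, Cyp51, Msmo1, Nsdhl, Hsd17b7, Dhcr7, Srebf2, Insig1 and Insig2. No member passed after adjustment over all probe sets, the smallest adjusted p being 0.329 for Insig2. The tumour mean was lower for 19 of the 24 genes, against 42.7% of all genes, and the median difference was -1.65, against 0.084 over all genes. It was -0.903 when a gene's probe sets were averaged, dim ones included. In 11 genes all 3 tumour arrays lay below all 3 healthy-tissue arrays and in none above them, against 5.36% of all genes below and 6.58% above. With values below background raised to it, 8 genes were lower without overlap, and the share of all genes was not computed for that setting. Leaving out 1 array at a time gave 9 to 14 lower genes, against 3.22% to 5.45% of all genes. Without tumour replicate 2 there were 17 genes whose groups did not overlap and were lower. Non-overlap is easier to meet with fewer arrays, and its share over all genes was not computed for that fit. Without tumour replicate 2 Lss passed with a limma adjusted p of 0.0251. With the level of the hybridization controls as a covariate, an alternative chosen after seeing the data, only 2 of the 24 genes (Insig1 and Insig2) were lower at an unadjusted p under 0.05, against 3.82% of all genes, and the median difference was -0.705.

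**Figure D1:**
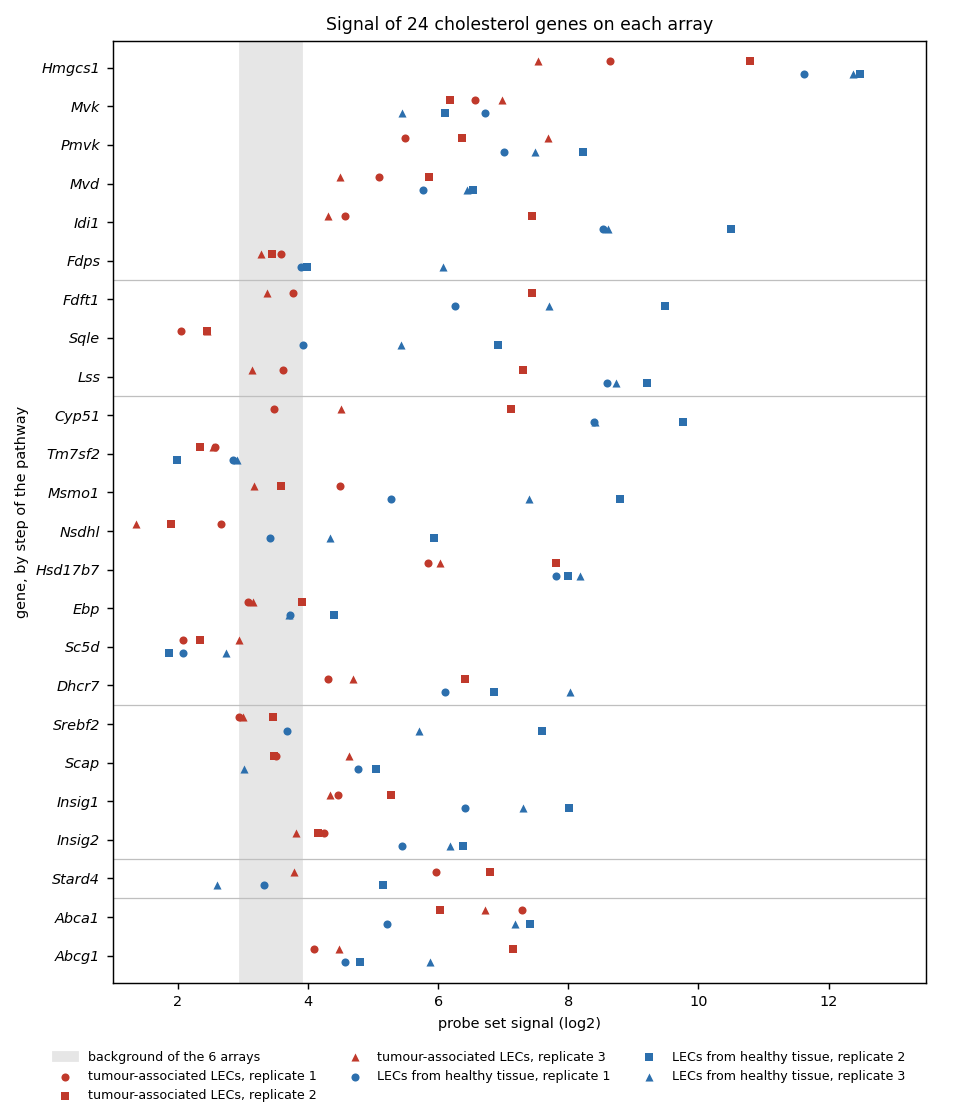
Signal of the representing probe set (log2, horizontal axis) of each of the 24 measured genes (rows, by step of the pathway, grey lines between steps) on the 3 arrays of tumour-associated LECs (red) and the 3 of LECs from healthy tissue (blue); the shape of a point gives the replicate and the grey band spans the backgrounds of the 6 arrays. The red points of Idi1, Lss and Cyp51 lie left of all blue ones, while those of Abca1 and Abcg1 are mixed with them.

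RefSeq promoter windows (GRCm38.p6, 250 bases before to 50 after the start) were found for 19 of the 24 measured genes. Each was searched on both strands for TCACNCCAC, a form of the sterol regulatory element that SREBP proteins bind, and for CCAAT, the box of the factor NF-Y that is known to act beside it. TCACNCCAC was in 1 of the 19, Hmgcs1, starting at position -137 from the gene's start, and in 1.44% of 27025 genes with a window. CCAAT was in 17 of the 19, against 41.1% of all genes; it was in 12 of the 12 lower genes with a window and in 5 of the other 7. These are matches of letters in a window, not sites shown to be bound. The windows below belong to 4 genes that were lower together, from the mevalonate steps, the ring steps and sterol sensing, and to Abca1, which was not lower and holds neither motif. Each is written 5′ to 3′ on the gene's strand, and capitals mark TCACNCCAC and CCAAT or their reverse complements.
Hmgcs1, chr13:119690101-119690400, plus strand: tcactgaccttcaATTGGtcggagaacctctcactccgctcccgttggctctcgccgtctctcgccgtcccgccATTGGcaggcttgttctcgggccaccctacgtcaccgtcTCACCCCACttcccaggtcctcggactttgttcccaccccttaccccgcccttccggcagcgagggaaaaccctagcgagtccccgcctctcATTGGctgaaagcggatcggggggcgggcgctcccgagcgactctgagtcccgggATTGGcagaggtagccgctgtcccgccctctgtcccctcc
Idi1, chr13:8885356-8885655, plus strand: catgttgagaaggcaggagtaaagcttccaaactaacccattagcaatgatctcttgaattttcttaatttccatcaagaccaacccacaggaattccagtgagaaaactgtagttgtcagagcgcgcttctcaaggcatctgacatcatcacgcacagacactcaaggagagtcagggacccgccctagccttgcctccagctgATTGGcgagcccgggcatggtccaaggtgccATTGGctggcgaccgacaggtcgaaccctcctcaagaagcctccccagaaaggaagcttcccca
Cyp51, chr5:4104648-4104947, minus strand: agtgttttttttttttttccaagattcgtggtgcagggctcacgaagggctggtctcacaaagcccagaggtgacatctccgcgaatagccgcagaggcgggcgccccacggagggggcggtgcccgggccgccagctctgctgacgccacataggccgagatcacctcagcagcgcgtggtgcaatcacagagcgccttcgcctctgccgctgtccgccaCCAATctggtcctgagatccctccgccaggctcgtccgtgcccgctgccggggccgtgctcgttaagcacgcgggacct
Insig1, chr5:28071162-28071461, plus strand: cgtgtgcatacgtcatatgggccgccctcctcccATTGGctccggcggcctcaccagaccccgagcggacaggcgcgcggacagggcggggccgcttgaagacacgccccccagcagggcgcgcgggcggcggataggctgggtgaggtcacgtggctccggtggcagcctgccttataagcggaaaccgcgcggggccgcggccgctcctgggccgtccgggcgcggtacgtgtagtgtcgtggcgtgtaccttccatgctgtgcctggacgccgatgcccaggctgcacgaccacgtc
Abca1, chr4:53159846-53160145, minus strand: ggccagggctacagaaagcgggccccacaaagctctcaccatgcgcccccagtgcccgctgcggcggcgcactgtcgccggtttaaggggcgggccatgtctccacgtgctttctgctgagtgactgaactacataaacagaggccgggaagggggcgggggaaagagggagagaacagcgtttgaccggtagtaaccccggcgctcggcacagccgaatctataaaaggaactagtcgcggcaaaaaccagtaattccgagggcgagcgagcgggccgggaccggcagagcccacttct

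The first steps run from acetoacetyl-CoA to farnesyl diphosphate. In this stretch 5 of 6 measured genes had a lower tumour mean, with a median difference of -1.16, and 3 were lower at an unadjusted p under 0.05. Hmgcs1 encodes the cytosolic synthase that makes HMG-CoA. It had 8.64, 10.79 and 7.54 in tumour-associated replicates 1, 2 and 3, against 11.62, 12.48 and 12.37 in healthy tissue (1433443_a_at). No tumour array reached the lowest healthy-tissue one, and tumour replicate 2 came nearest. The means were 8.99 ± 1.65 in tumour-associated LECs and 12.16 ± 0.47 in healthy tissue (SD, n = 3 each), a difference of -3.17 with a standard error of 0.80 (limma adjusted p = 0.557). Of its other probe sets, 1433444_at and 1433445_x_at differed by -3.33 and -3.76 without overlap, 1433446_at by -1.69, and 1441536_at was not above background on any array.

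Idi1 encodes the isomerase that supplies dimethylallyl diphosphate, the starter unit of isoprenoid chains. Its signal was 4.56, 7.44 and 4.31 in tumour-associated replicates 1, 2 and 3, against 8.53, 10.51 and 8.61 in healthy tissue (1451122_at). Both groups had their highest value in replicate 2 and they did not overlap. The difference was -3.78 (standard error 0.94, limma adjusted p = 0.557), and the other probe set, 1423804_a_at, differed by -4.97. Mvd, the decarboxylase that forms isopentenyl diphosphate, had 5.09, 5.86 and 4.49 in tumour-associated LECs, against 5.77, 6.53 and 6.45 in healthy tissue (1448663_s_at). Its groups overlapped by tumour replicate 2, the difference was -1.10 (limma adjusted p = 0.752), and its other probe set, 1417303_at, differed by 0.22. The ending _s_at marks a probe set that can match transcripts of several genes.

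Fdps, which joins isoprenoid units into farnesyl diphosphate, had 3.59, 3.44 and 3.28 in tumour-associated LECs, against 3.89, 3.99 and 6.08 in healthy tissue (1423418_at). The groups did not overlap, yet 5 of the 6 values lay within 1 log2 unit of background and the healthy-tissue mean rested on replicate 3. Its difference was -1.21 (limma adjusted p = 0.836). The kinases of the mevalonate stretch did not pass the unadjusted p. Mvk, mevalonate kinase, ranged from 6.18 to 6.98 in tumour-associated LECs and from 5.44 to 6.72 in healthy tissue, a difference of 0.49 (limma adjusted p = 0.881). Pmvk, phosphomevalonate kinase, ranged from 5.50 to 7.68 in tumour-associated LECs and from 7.005 to 8.23 in healthy tissue, a difference of -1.06 (limma adjusted p = 0.861). Both overlapped between the groups.

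Squalene synthesis and its closure to lanosterol, the first steps committed to sterols, are served by Fdft1, Sqle and Lss. All 3 had lower tumour means, with a median difference of -3.11. Lss, lanosterol synthase, which folds oxidosqualene into the first sterol ring, had the most negative difference of the 24 representing probe sets. It gave 3.61, 7.30 and 3.14 in tumour-associated replicates 1, 2 and 3, against 8.59, 9.21 and 8.73 in healthy tissue (1420013_s_at). Healthy-tissue values spanned less than 1 log2 unit, whereas tumour replicate 2 stood far above the other tumour arrays. The difference was -4.16 (standard error 1.05, limma adjusted p = 0.557), and -5.47 without tumour replicate 2. Tumour replicate 3 lay below its background of 3.91, and tumour replicate 1 just above its own, 3.45. With values below background raised to it, the difference over all arrays was -3.9. The other Lss probe sets, which lack the _s ending, differed by -2.45 (1420014_at) and -1.32 (1426913_at), and neither overlapped between the groups. On 1426913_at no tumour array and only 2 healthy-tissue arrays were above background.

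Sqle encodes squalene epoxidase, a rate-controlling enzyme of the sterol branch. It had 2.05, 2.45 and 2.45 in tumour-associated LECs, all below background, against 3.93, 6.93 and 5.43 in healthy tissue (1415993_at). Because the tumour values give only a bound, the signal was at least 3.56-fold lower in tumour-associated LECs (limma adjusted p = 0.518); such bounds set the healthy-tissue mean against background. Fdft1, squalene synthase, had 3.77, 7.45 and 3.36 in tumour-associated LECs, against 6.26, 9.49 and 7.71 in healthy tissue (1438322_x_at). Tumour replicate 2 fell among the healthy-tissue values, and the difference was -2.96 (limma adjusted p = 0.786). The ending _x_at marks probes that may also bind other transcripts, and 1448130_at, without it, differed by -1.03. Also without it, 1438918_at differed by 0.22, with 2 tumour arrays and 3 healthy-tissue arrays above background. The fourth probe set, 1438919_x_at, was not above background on any array.

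From lanosterol to cholesterol, 5 of 8 genes were lower at an unadjusted p under 0.05. Cyp51, the demethylase that acts first on lanosterol, had 3.47, 7.12 and 4.50 in tumour-associated replicates 1, 2 and 3, against 8.40, 9.76 and 8.41 in healthy tissue (1450646_at). The groups did not overlap. The difference was -3.82 (standard error 0.93, limma adjusted p = 0.547), and 1422533_at differed by -2.77. On 1422534_at no tumour array was above background and the signal was at least 1.59-fold lower in tumour-associated LECs (limma adjusted p = 0.868), but healthy replicate 2 was below background too, at 2.99, and the healthy-tissue mean rested on replicate 3, at 5.85. Msmo1 and Nsdhl act in turn to remove the methyl groups at carbon 4 of the ring. Msmo1 (1423078_a_at) had 4.49, 3.59 and 3.17 in tumour-associated LECs, against 5.28, 8.79 and 7.39 in healthy tissue, a difference of -3.40 (limma adjusted p = 0.560). Nsdhl (1416222_at) had 2.66, 1.89 and 1.36 in tumour-associated LECs, all below background, against 3.42, 5.93 and 4.34 in healthy tissue. Neither gene overlapped between the groups, tumour replicate 2 was not the highest tumour array in either, and healthy replicate 2 was the highest of its group in both. Nsdhl was at least 1.95-fold lower in tumour-associated LECs (limma adjusted p = 0.579), with only 2 of the 3 healthy-tissue arrays above background.

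Hsd17b7, the reductase that completes the removal at carbon 4, had 5.85, 7.82 and 6.02 in tumour-associated LECs, against 7.81, 8.00 and 8.17 in healthy tissue (1457248_x_at). The groups met at tumour replicate 2, which just exceeded the lowest healthy-tissue array, and the difference was -1.43 (limma adjusted p = 0.740). A probe set without the _x ending, 1448865_at, differed by -1.37 and did not overlap. Another, 1417871_at, differed by -0.82, with 1 healthy-tissue array and no tumour array above background. On 1440057_at the difference was 0.52 (limma adjusted p = 0.872), with 2 tumour arrays and no healthy-tissue array above background. As a bound its signal was at least 1.24-fold higher in tumour-associated LECs. Dhcr7, the reductase that can make cholesterol in the last step, had 4.31, 6.42 and 4.69 in tumour-associated LECs, against 6.11, 6.87 and 8.03 in healthy tissue (1448619_at). Tumour replicate 2 again fell among the healthy-tissue values, and the difference was -1.86 (limma adjusted p = 0.735). The remaining ring genes were dim. Ebp, the sterol isomerase, ranged from 3.08 to 3.91 in tumour-associated LECs and from 3.71 to 4.40 in healthy tissue, a difference of -0.56. The representing probe sets of Tm7sf2, a sterol reductase, and Sc5d, a desaturase, were not above background on any array.

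**Figure D2:**
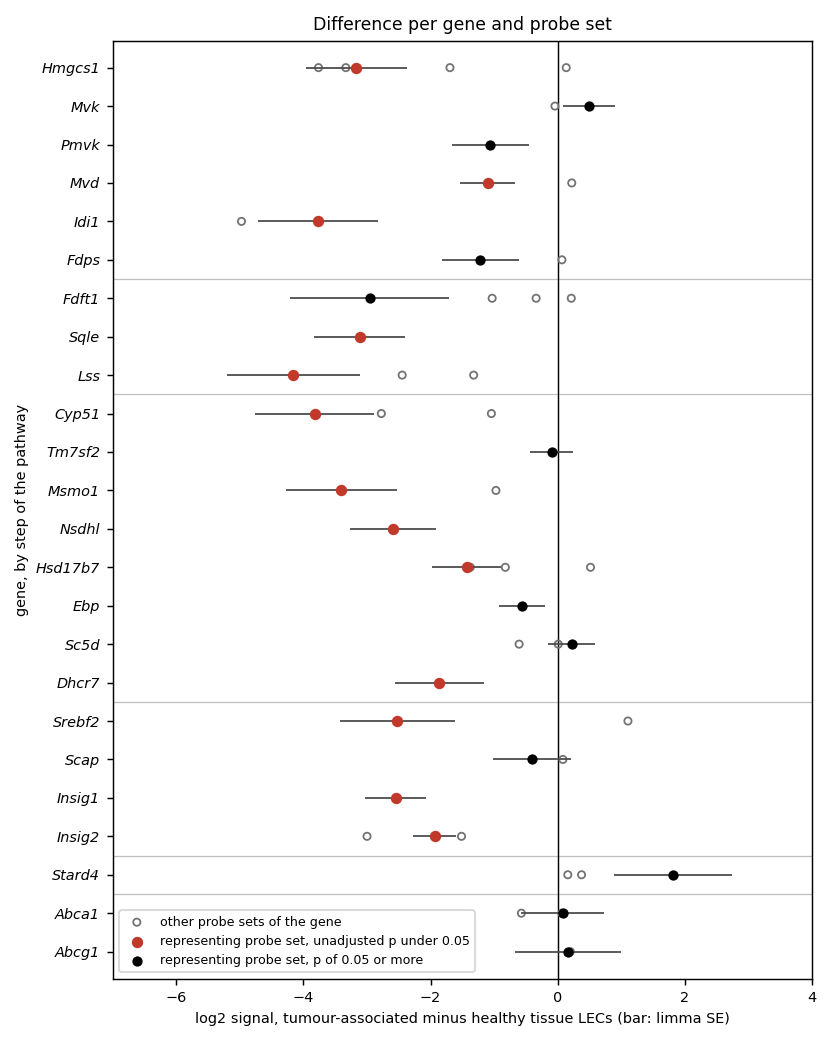
Difference in log2 signal, tumour-associated minus healthy-tissue LECs (horizontal axis), for the representing probe set of each of the 24 genes (filled points with the limma standard error; red where the unadjusted p is under 0.05) and for its other probe sets (open circles). Filled points lie between -4.16 for Lss and 1.82 for Stard4.

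Among the genes of sterol sensing, both Insig genes had the smallest p-values of the 24 representing probe sets. Insig1 encodes an anchor protein that retains the SCAP complex and is itself a known target of SREBP-2. It had 4.46, 5.28 and 4.34 in tumour-associated replicates 1, 2 and 3, against 6.41, 8.01 and 7.31 in healthy tissue (1454671_at). The highest tumour array stood more than 1 log2 unit below the lowest healthy-tissue array. Means were 4.69 ± 0.51 in tumour-associated LECs and 7.24 ± 0.80 in healthy tissue, a difference of -2.55 (standard error 0.49, limma adjusted p = 0.367). With values below background raised to it, Insig1 passed with a limma adjusted p of 0.0474. Its own values were above background on every array, so they and the difference did not change. That setting called 118 probe sets over the whole array, against 2 in the main fit. Insig2, the second such anchor, had 4.25, 4.15 and 3.81 in tumour-associated LECs, against 5.44, 6.38 and 6.19 in healthy tissue (1417981_at). It did not overlap either, differing by -1.93 (standard error 0.34, limma adjusted p = 0.329), and 1417982_at differed by -1.51. On 1417980_a_at no tumour array was above background, and the signal was at least 1.99-fold lower in tumour-associated LECs (limma adjusted p = 0.329). Healthy replicate 1, at 3.46, was below background there too.

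Srebf2 gave conflicting probe sets. On 1426744_at it had 2.95, 3.46 and 3.00 in tumour-associated LECs, against 3.67, 7.59 and 5.71 in healthy tissue. These groups did not overlap, but only 1 tumour array and 2 healthy-tissue arrays were above background, and the difference was -2.52 (standard error 0.91, limma adjusted p = 0.719). On 1452174_at it had 2.80, 6.06 and 3.20 in tumour-associated LECs, against 3.03, 2.93 and 2.78 in healthy tissue, where no array was above background. The measured difference was 1.11 (limma adjusted p = 0.872), with tumour replicate 2 the only array above background, and as a bound the signal was at least 1.59-fold higher in tumour-associated LECs. Scap ranged from 3.47 to 4.63 in tumour-associated LECs and from 3.02 to 5.04 in healthy tissue, a difference of -0.41 (limma adjusted p = 0.933).

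The 3 measured genes that move sterol inside the cell or out of it had higher tumour means, and none passed the unadjusted p. Stard4, a carrier of cholesterol between membranes, had 5.96, 6.79 and 3.79 in tumour-associated replicates 1, 2 and 3, against 3.32, 5.15 and 2.61 in healthy tissue (1455011_at). The groups overlapped and the difference was 1.82 (standard error 0.93, limma adjusted p = 0.843). Only 2 tumour arrays and 1 healthy-tissue array were above background. Stard4 was higher at an unadjusted p under 0.05 in 5 alternatives: the replicate block, the floor at background, the mean over its probe sets, and without tumour replicate 3 or healthy replicate 2. Its limma adjusted p in these ranged from 0.471 to 0.843. It was the most positive difference among the 24 representing probe sets, and the other Stard4 probe sets, each above background on at most 1 array, differed by 0.16 and 0.38. Abca1, which loads cholesterol onto lipid-poor apolipoprotein A-I, had 7.28, 6.03 and 6.73 in tumour-associated LECs, against 5.22, 7.41 and 7.18 in healthy tissue (1421840_at). The groups were interleaved, with a difference of 0.08 (standard error 0.65, limma adjusted p = 0.989). Abcg1, which exports cholesterol to lipoprotein particles, had 4.10, 7.15 and 4.47 in tumour-associated LECs, against 4.57, 4.80 and 5.87 in healthy tissue (1423570_at). Tumour replicate 2 was the highest of the 6 arrays, and the difference was 0.16 (standard error 0.83, limma adjusted p = 0.984). Whether efflux and synthesis genes differ in their response was not tested, and the signs for Abca1 and Abcg1 turned when single arrays were left out.

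Over all 54 probe sets of the members, 21 were lower at an unadjusted p under 0.05 and none was higher, against 3.53% of all probe sets lower. Of the 30 that did not represent a gene, 8 were lower by that rule, and 6 were above background on no array.

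The lower genes varied together between arrays of the same group. Their mean signal was 4.34, 5.66 and 4.06 in tumour-associated replicates 1, 2 and 3, against 6.54, 8.23 and 7.47 in healthy tissue. Tumour replicate 2 was the highest tumour array for 10 of the 13, whereas over all genes it was the highest for 26.9%. Healthy replicate 2 was the highest healthy-tissue array for 11 of the 13, against 25.7% of all genes. Healthy replicate 1 was the lowest for all 13, whereas over all genes it was the lowest for 4098 of 18193. With group means taken out, the 78 pairs of these genes had a median Pearson r of 0.685 over the 6 arrays, from -0.03 to 0.99. This is a description, since the pairs share the same few arrays, and r was not computed for pairs of other genes.

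Genes linked to the pathway but not among the members were followed in separate lists. The 27 measured sterol partners were a mixed list, not only genes that bind, sense, split or shuttle sterols. Of these, 2 were lower and 2 higher at an unadjusted p under 0.05, with a median difference of -0.03. The smallest p-values were those of Rnf139, a sterol-sensing ubiquitin ligase of the endoplasmic reticulum (difference 2.62, limma adjusted p = 0.560), Osbp, an oxysterol-binding protein (1.42, limma adjusted p = 0.711), and Acat1, the mitochondrial thiolase (-2.62, limma adjusted p = 0.738). Of 13 genes of fatty acid synthesis, 7 were lower and 2 were higher by the same rule, with a median of -1.73. Acss2, which makes acetyl-CoA from acetate, differed by -3.36 (limma adjusted p = 0.312), Elovl5, a fatty acid elongase, by -2.88 (limma adjusted p = 0.367) and Srebf1, the sister factor of Srebf2, by -2.10 (limma adjusted p = 0.367). The higher ones were the desaturases Scd2 (1.56, limma adjusted p = 0.702) and Fads2 (0.71, limma adjusted p = 0.776).

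**Figure D3:**
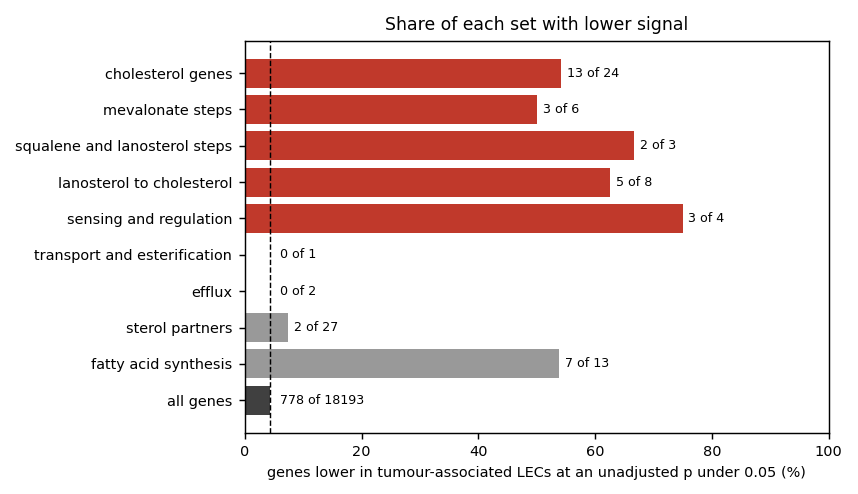
Share of measured genes (%) with lower signal in tumour-associated LECs at an unadjusted limma p under 0.05, for the cholesterol genes and their steps (red), the lists of linked genes (grey) and all genes (black bar and dashed line at 4.28%). Beside each bar stand the lower genes of those measured, 13 of 24 for the cholesterol genes and none of 2 for efflux.

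Markers of skin cells also had lower signal in tumour-associated LECs. The 24 genes averaged 4.35, 5.38 and 4.27 in tumour-associated replicates 1, 2 and 3, against 5.64, 6.89 and 6.33 in healthy tissue. On the same arrays the 10 measured sebaceous gland markers averaged 4.19, 5.36 and 4.03 in tumour-associated LECs, against 6.30, 7.02 and 6.61 in healthy tissue, in the same order within each group. Of these, 7 were lower at an unadjusted p under 0.05, among them Far2, an enzyme of wax synthesis (5.16 ± 2.23 in tumour-associated LECs and 10.48 ± 0.84 in healthy tissue). Fasn stood in both this list and that of fatty acid synthesis, and Mc5r was not above background on any array. Keratinocyte markers averaged 6.04, 5.62 and 4.30 in tumour-associated replicates 1, 2 and 3, against 7.32, 7.51 and 7.90 in healthy tissue, an order within groups unlike that of the cholesterol genes. Of these, 8 of 14 were lower by that rule, with Dsg1a above background on no tumour array. Adipocyte markers averaged 4.17 to 4.52 in tumour-associated LECs and 5.03 to 5.09 in healthy tissue, with a median difference of -0.263 and 3 of 9 higher in mean. Only Lpl, a lipase of capillary walls (-3.58, limma adjusted p = 0.569), was lower by that rule, with Adipoq and Cidec above background on no array. Their part in the lower signal of the cholesterol genes was not tested, and fewer cells of a type and less RNA per cell cannot be told apart in such captures.

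The other marker lists ran the opposite way or overlapped. Lymphatic endothelium markers averaged 7.63 to 8.28 in tumour-associated LECs and 5.80 to 7.52 in healthy tissue, 7 of 7 with a higher tumour mean and 2 higher at an unadjusted p under 0.05. Pan-endothelial markers averaged 5.92 to 6.19 in tumour-associated LECs and 4.51 to 4.77 in healthy tissue, with 6 of 10 higher by that rule, and Kdr was above background on no healthy-tissue array. Macrophage markers averaged 5.59, 7.53 and 5.72 in tumour-associated replicates 1, 2 and 3, against 5.23, 5.47 and 4.97 in healthy tissue, with 4 of 11 higher and Cd14 above background on no healthy-tissue array. Fibroblast markers averaged 9.04, 10.12 and 6.41 in tumour-associated replicates 1, 2 and 3, against 7.93, 9.94 and 8.29 in healthy tissue, with none of 8 past that p. Within each group their arrays stood in the same order as for the cholesterol genes. Pericyte and smooth muscle markers averaged 5.22 to 7.08 in tumour-associated LECs and 5.49 to 5.74 in healthy tissue, with 2 of 8 higher.

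The hybridization controls, 18 probe sets for bacterial and phage transcripts, also moved with the cholesterol genes, in the opposite direction. Their mean was 13.20, 12.78 and 13.36 in tumour-associated replicates 1, 2 and 3, against 13.01, 12.35 and 12.33 in healthy tissue (exact two-sided permutation p = 0.2, n = 3 each, where 0.1 is the smallest p possible). Tumour replicate 2 was the lowest tumour array for the controls and the highest for the cholesterol genes, and healthy replicate 1 was the highest of its group for the controls and the lowest for the cholesterol genes. The share of probe sets above background was 44.9% on average in tumour-associated LECs and 49.3% in healthy tissue (exact permutation p = 0.4). The 3′ minus 5′ signal of the Gapdh control, a sign of RNA length, ranged from 2.15 to 4.10 in tumour-associated LECs and from 2.77 to 3.72 in healthy tissue.

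**Figure D4:**
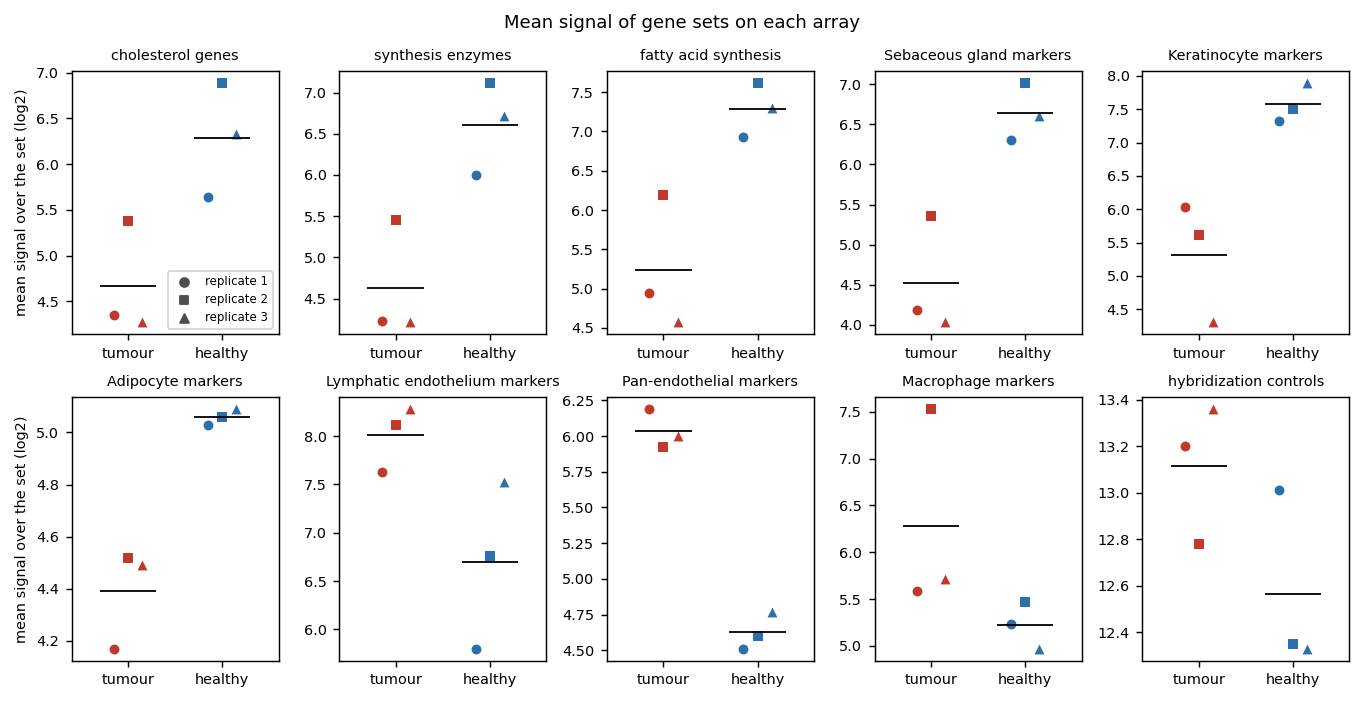
Mean log2 signal (vertical axes, each with its own range) of gene sets and of the hybridization controls on the 3 arrays of tumour-associated LECs (left, red) and the 3 of LECs from healthy tissue (right, blue); shapes give the replicate and black lines the group means. Replicate 2 of the tumour arrays is the highest of its group for cholesterol genes, synthesis enzymes and fatty acid synthesis. It is also the highest for sebaceous gland, adipocyte and macrophage markers, and the lowest for pan-endothelial markers and the hybridization controls.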

How the data were processed

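The authors deposited 1 intensity value per probe set and array on a linear scale, made with RMA per the submitters' processing notes; its software, probe set definitions and filters were not given in the sources used. Every column belonged to a sample. No pseudocount or further normalization was applied before log2. Then 64 control probe sets were left out and the other 45037 were tested. Symbols came from the platform annotation (34945 probe sets with a single symbol, 932 with several, 9160 with none), and members were matched by symbol or Entrez gene.

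The comparison used lmFit and eBayes of limma 3.58.1 (R 4.3.3), with two-sided p-values and a prior df of 2.82, adjusted over all probe sets at a threshold of 0.05 and tested on simulated data first. The members and lists were chosen with earlier results of these data known. All 26 members are named by rule, with every array's values where the unadjusted p was under 0.05 or the groups did not overlap, and up to 3 genes of smallest p per linked list; values of Stard4, Fdft1, Abca1 and Abcg1, the desaturases Scd2 and Fads2, and the marker genes were added after seeing them. No gene list was tested as a list. Array number and signal over background, rather than depth, limit precision. Promoter sequences are from RefSeq. RMA as usually run makes array distributions alike and so hides overall differences in RNA amount; array medians here were 3.25 to 3.45.

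Alternatives were quantile normalization, centring on medians, removal of dim probe sets, a floor at background, array weights, trend and robust options in eBayes, a replicate block, leaving out each array, and other choices of probe set per gene. The hybridization-control covariate and the joint removal of both arrays numbered 2 were added after seeing the data.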

Additional observations from a re-analysis of the deposited data

How the results depend on the processing

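The 13 genes lower at an unadjusted limma p under 0.05 had negative values in 219 of 220 recomputed differences. The exception was Mvd, with 0.223 when _x_at and _s_at probe sets were avoided. These genes were picked for being lower on the same arrays, so their sign was nearly fixed beforehand. Over all 24 measured members, 17 of 405 recomputed differences, in 7 genes, changed sign. Without 1 array the count of lower genes was 9 to 14, against 3.22% to 5.45% of all genes. The count of genes lower without overlap was 11 to 17, with 0 or 1 higher without overlap, a condition easier to meet with fewer arrays. Mvd, Hsd17b7, Dhcr7 and Srebf2 were the genes to lose that p without tumour replicate 1, tumour replicate 3 or healthy replicate 3, and all of these but Srebf2 lost it without healthy replicate 2. The hybridization-control covariate gave 2 lower genes and a median of -0.705, and the cause was not tested. Averaging all probe sets of a gene gave a median of -0.903, with dim probe sets included. Leaving out both arrays numbered 2 gave 13 lower genes, against 4.3% of all genes. In that fit 18 genes were lower without overlap and 1, Stard4, was higher without overlap. The share of all genes without overlap was not computed with arrays left out, so these overlap counts cannot be set against it.

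The number of probe sets called over the whole array was unstable: 21 with the filter on dim probe sets, 118 with the floor at background, 22 with array weights, 1 with trend and robust options, and 0 after centring, with the covariate or without both arrays numbered 2. Without 1 array it was 0 to 23, the 23 without tumour replicate 2 and 0 without each other array. The replicate block gave 0 called probe sets. At an unadjusted p under 0.05 it gave 14 member genes lower, against 4.82% of all genes. It gave 1, Stard4, higher, and the share of all genes higher was not computed there. Same-numbered arrays correlated at 0.0439, 0.101 and -0.0127 in their deviations from group means. Tumour replicates 1 and 2 correlated best with their own number, and tumour replicate 3 with healthy replicate 1 (0.121). With 3 arrays per group these correlations cannot settle whether the numbers are pairs. The numbers were not taken as pairs because the labels name no animals behind them.

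Pmvk was lower at an unadjusted p under 0.05 with array weights and without tumour replicate 3. Genes near 0 changed sign. Tm7sf2 had 0.244 with the floor and 0.196 with array weights. Abca1 had -0.0438 with array weights and -0.142 over all its probe sets. Abcg1 had -0.181 with array weights and -0.934 without both arrays numbered 2. Sc5d had -0.125 over all its probe sets, Mvk -0.272 with the covariate and Scap 0.17 without both arrays numbered 2. Without 1 array Tm7sf2 ranged from -0.392 to 0.0675, Sc5d from -0.0254 to 0.476, Abca1 from -0.615 to 0.479 and Abcg1 from -0.794 to 0.731.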
